A study of Mus musculus with 10 samples.

Results

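Etv2 is an ETS-family transcription factor that is switched on for a short time in early mesoderm and is needed there for blood and vessel precursors. In mouse embryos its known targets include Tal1, Lmo2, Kdr (the VEGF receptor Flk1) and other genes of the haemato-endothelial lineage, and its own expression lies downstream of BMP, Wnt and Notch signals and of VEGF. Described here are the genes that differed after 2 days of embryoid body culture between bodies in which a tagged Etv2 copy had been induced and bodies in which it had not. The samples were chosen by their labels: 4 of the 10 libraries of the series, of which 2 are doxycycline-treated and 2 untreated at day 2.

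Embryoid bodies are aggregates of mouse embryonic stem cells that differentiate in culture. All libraries come from a line called iHA-Etv2, in which doxycycline drives an HA-tagged Etv2, so that the untreated bodies carry the same transgene without its inducer. No library has doxycycline without the transgene, so effects of Etv2 and of doxycycline itself cannot be told apart. The day 2 groups are labelled EB_Dox_D2_Etv2 and EB_NoDox_D2_Etv2, and both are marked FALSE for Flk1-positive cells, which does not say whether those cells were removed or nothing was sorted. The other 6 libraries are doxycycline-treated, doxycycline-treated Flk1-positive and untreated bodies at day 2.5, with 2 libraries each. The labels give neither the doxycycline dose nor the time at which it was added, and they do not call the 2 libraries of a group separate cultures, so p-values measure the spread between these libraries, which may be technical.

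Total counts were 21255952 and 21134667 in the doxycycline libraries of day 2, against 23358858 and 18666747 in the untreated ones, and 18074070 to 36068329 at day 2.5. Levels are given as CPM, counts relative to the TMM-scaled library size, and differences as log2 fold changes, doxycycline over untreated, ± the standard error. The 2 doxycycline libraries of day 2 stood apart from each other more than any other replicate pair: the chi-square per gene between their counts was 32.6, against 3.35 to 9.77 in the other 4 pairs. The spread shared over all libraries may thus be smaller than that of this pair. The difference between the 2 libraries followed gene length and is described after the gene groups. Markers matched the label: the summed level of 6 epiblast-type markers (Pou5f1, Sox2, Nanog, Otx2, Fgf5, Dnmt3b) was 3869.6 and 3595 CPM with doxycycline, against 4223 and 4351 CPM without it. The summed level of the streak markers T, Eomes and Mixl1 was 1119.7 and 1236 CPM with doxycycline, against 1164 and 1137 CPM without it. Of the 4 endothelial markers Tek was called higher, though not in all alternatives, with 6.23 and 9.43 CPM with doxycycline, against 4.72 and 4.69 CPM without it, and Pecam1 had 15.8 and 11.3 CPM with doxycycline, against 14.8 and 17.5 CPM without it. The others were lower in level: Emcn had 0 counts in all 4 libraries and Cdh5 had 11 and 12 counts with doxycycline, against 11 and 13 counts without it. Of the 2 leukocyte markers Ptprc had 0 and 4 counts with doxycycline, against 1 and 0 counts without it, and Laptm5 had 109 and 102 counts with doxycycline, against 87 and 50 without it.

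Etv2 itself checked the labels. It had 507 and 403 CPM with doxycycline, against 15.8 and 18.1 CPM without it (log2 fold change 4.75 ± 0.13, edgeR adjusted p = 6.84e-12), and the groups lay far apart. The gene lies at chr7:30633616-30635852 on the minus strand in GRCm38, and counts from the induced copy and from the cell's own locus cannot be told apart. A total of 14548 genes had enough counts to be tested with edgeR's quasi-likelihood test, and a gene was called at a Benjamini-Hochberg adjusted p under 0.05. At day 2, 453 genes were higher with doxycycline (3.11% of those tested) and 227 were lower (1.56%), 680 in all (4.67%). The list counts below are to be read against these shares. The 4 libraries of each called gene did not overlap between groups, as was also so of 6233 genes tested (42.8%). Where called genes below are said not to overlap, or to lie above or below both untreated libraries, this adds nothing to their calls.

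The rises were larger than the falls. Among the higher genes 171 passed 2-fold and 56 passed 4-fold, and among the lower genes 34 and 1 did. The median log2 fold change was 0.80 among the higher genes and -0.60 among the lower ones, and 151 higher and 105 lower genes changed by less than 1.5-fold. For 47 of the higher genes the untreated mean was under 1 CPM. Of the called genes, 112 higher and 32 lower ones were called in all 20 alternative analyses, and a gene named below was called in all 20 unless its loss is stated. The count depended on which libraries were fitted: 117 genes were higher and 38 lower with only the 4 day 2 libraries fitted, 188 and 58 without untreated replicate 1, and 196 and 59 without untreated replicate 2. It was 1035 higher and 733 lower without doxycycline replicate 1, and 1022 higher and 1275 lower without doxycycline replicate 2. The fit of the 4 day 2 libraries takes its spread from them alone. An analysis that leaves out a day 2 library has 1 library in that group, whose spread is then not measured. Its counts, here and in the lists below, are therefore not comparable with the reported ones and show only dependence on single libraries. For the lists below, counts that moved by over 1.5-fold are given for the analyses that leave out a day 2 library, fit the 4 day 2 libraries alone or remove length and GC trends.

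**Figure D1:**
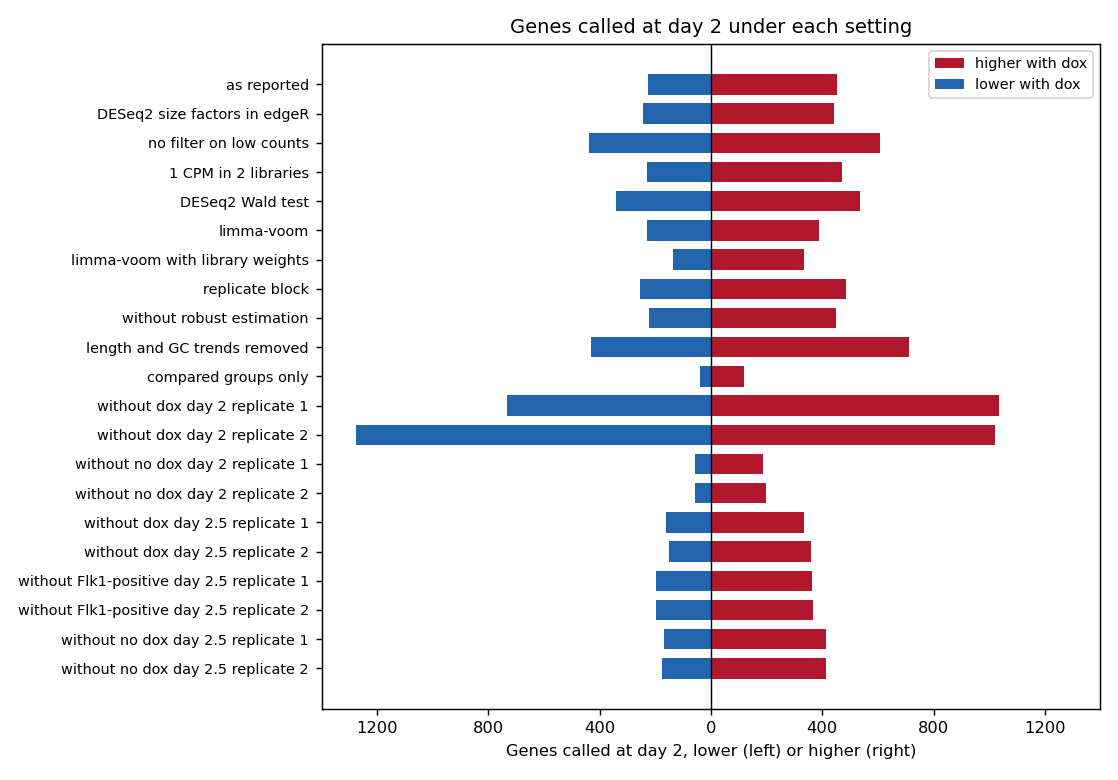
Genes called at day 2 in the analysis as reported and in each of the 20 alternatives, with genes lower with doxycycline to the left and genes higher with it to the right. The reported counts are 453 higher and 227 lower, and the longest bars belong to the 2 analyses that leave out a doxycycline library.

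The blood and endothelial transcription factors split into a few strong responders and a majority without a call. Of 29 tested, 5 rose and 0 fell (17.2% higher), and the median log2 fold change of the list was -0.22, against 0.00 over all genes. Tal1, a basic helix-loop-helix factor needed for blood formation, had 50.6 and 47.1 CPM with doxycycline, against 2.25 and 3.11 CPM without it (log2 fold change 4.2 ± 0.15, edgeR adjusted p = 1.01e-10). Lmo2, the LIM-only adaptor that binds Tal1, had 54.7 and 56 CPM with doxycycline, against 8.75 and 8.24 CPM without it (log2 fold change 2.70 ± 0.10, edgeR adjusted p = 1.09e-10). Both genes lay above every untreated library by a wide margin, and the doxycycline libraries of each agreed closely. Sox18, a SoxF factor of vessel cells, had 25.7 and 18.5 CPM with doxycycline, against 1.26 and 0.982 CPM without it (log2 fold change 4.28 ± 0.22, edgeR adjusted p = 8.37e-09). Hhex, a homeobox factor of blood vessel and endoderm precursors, had 22.8 and 25 CPM with doxycycline, against 8.23 and 7.26 CPM without it (log2 fold change 1.62 ± 0.12, edgeR adjusted p = 5.21e-07). Ldb1, which bridges LIM-only proteins to other factors, rose by 0.42 ± 0.10 on the log2 scale (edgeR adjusted p = 0.0183). The call of Ldb1 was lost with only the 4 day 2 libraries fitted and without 1 or the other untreated library, at edgeR adjusted p between 0.122 and 0.251. For the blood and endothelial factors the lower count was 2 without doxycycline replicate 2. Gata2, another partner of Tal1 and Lmo2, was not called, with 5.95 and 3.71 CPM with doxycycline, against 3.72 and 3.27 CPM without it (log2 fold change 0.46 ± 0.20, edgeR adjusted p = 0.264), and no Gata gene of 6 tested was called in edgeR, with 2 at an unadjusted p under 0.05 and 1 called in DESeq2. For the Gata genes the higher count was 1 without 1 or the other doxycycline library or with trends removed.

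Within the ETS family 4 of 22 tested genes rose, Etv2 included, and 1 fell. Elk3, a ternary complex factor expressed in vessels, had 48.4 and 58.2 CPM with doxycycline, against 8.66 and 9.66 CPM without it (log2 fold change 2.54 ± 0.12, edgeR adjusted p = 2.86e-09). Fev, better known as a factor of serotonin neurons, had 158 counts with doxycycline and 2 without it. The ratio of its levels was 78.6, with an exact 95% counting interval of 21.4 to 654. Ets2 rose by a small amount, 44.8 and 51.4 CPM with doxycycline, against 37.2 and 35.1 CPM without it (log2 fold change 0.41 ± 0.10, edgeR adjusted p = 0.0334), and Etv5, a PEA3-group factor and a target of FGF signalling, fell, 358 and 359.7 CPM with doxycycline, against 486 and 465 CPM without it (log2 fold change -0.41 ± 0.08, edgeR adjusted p = 0.00755). The call of Ets2 was lost in limma-voom with library weights, with only the 4 day 2 libraries fitted, without doxycycline replicate 2, without 1 or the other untreated library and without any 1 of the 6 day 2.5 libraries, at edgeR and limma adjusted p between 0.0515 and 0.301. The call of Etv5 was lost with only the 4 day 2 libraries fitted and without 1 or the other untreated library, at edgeR adjusted p between 0.0729 and 0.161. For the ETS family the higher count was 7 without doxycycline replicate 1, and the lower count was 0 with only the 4 day 2 libraries fitted or without 1 or the other untreated library, 4 without doxycycline replicate 2 and 2 with trends removed. In the Sox family 3 of 17 rose and 0 fell: Sox18, Sox4 and Sox9, a factor of cartilage and many other progenitors. Sox9 had 4.67 and 5.72 CPM with doxycycline, against 0.65 and 0.164 CPM without it (log2 fold change 3.57 ± 0.33, edgeR adjusted p = 6.24e-06), and Sox4 had 104 and 109 CPM with doxycycline, against 68.4 and 71 CPM without it (log2 fold change 0.61 ± 0.11, edgeR adjusted p = 0.0045). The call of Sox4 was lost with only the 4 day 2 libraries fitted and without 1 or the other untreated library, at edgeR adjusted p between 0.0511 and 0.0891. Of the Sox4 exon bases 54.6% overlap another annotated gene, and the strand setting of the counting is not given. For the Sox family the lower count was 1 without doxycycline replicate 1 or with trends removed. Sox17 and Sox7, the other SoxF genes, were not called, at 1.23 ± 0.37 and 1.13 ± 0.49 on the log2 scale.

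Endothelial genes were called higher in part, with Cdh5 and Emcn not among them. Of 34 genes tested of the endothelial adhesion and surface list, 10 rose (29.4%) and 0 fell, with a median log2 fold change of 0.71. The list also holds the transcription factors Tal1 and Sox18, the small GTPase Rhoj and the GTPase regulators Arhgap31 and Rasip1. Each of them is among the 10 without being a surface or adhesion gene. They are counted in other lists here too, so the counts are not independent. Pcdh12, a protocadherin of endothelial junctions also called VE-cadherin-2, had 14.2 and 19.1 CPM with doxycycline, against 0.563 and 0.382 CPM without it (log2 fold change 5.09 ± 0.29, edgeR adjusted p = 3.3e-08). Cldn5, the tight-junction claudin of vessels, had 9.06 and 6.45 CPM with doxycycline, against 0.433 and 0.982 CPM without it (log2 fold change 3.50 ± 0.29, edgeR adjusted p = 1.78e-06). Ecscr, a surface protein of endothelial cells, had 3.73 and 4.45 CPM with doxycycline, against 0.65 and 1.69 CPM without it (log2 fold change 1.86 ± 0.33, edgeR adjusted p = 0.00286). The call of Ecscr was lost with only the 4 day 2 libraries fitted and without untreated replicate 1, at edgeR adjusted p between 0.0792 and 0.175. All of these were at or under 2 CPM in untreated bodies. Thsd1, a thrombospondin-repeat protein of endothelial cells, was also among the genes with the smallest adjusted p, with 26.2 and 26 CPM with doxycycline, against 3.64 and 2.35 CPM without it (log2 fold change 3.10 ± 0.22, edgeR adjusted p = 3.49e-07). For the endothelial surface list the higher count was 6 with only the 4 day 2 libraries fitted or without untreated replicate 1.

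Receptors and their ligands went both ways. Of 22 vascular receptors and ligands tested, 7 rose and 3 fell. Kdr had 99.6 and 151 CPM with doxycycline, against 28.5 and 29.1 CPM without it (log2 fold change 2.12 ± 0.15, edgeR adjusted p = 4.22e-07), and Flt4, the receptor of VEGF-C, had 52.2 and 62.2 CPM with doxycycline, against 17.1 and 16 CPM without it (log2 fold change 1.78 ± 0.13, edgeR adjusted p = 4.23e-07). The Kdr levels of the 2 doxycycline libraries were farther apart than those of the untreated pair. Eng, a co-receptor for TGF-beta and BMP ligands, had 54.2 and 54.6 CPM with doxycycline, against 29.2 and 30.1 CPM without it (log2 fold change 0.88 ± 0.10, edgeR adjusted p = 4.39e-05). Robo4, an endothelial Robo receptor, rose to 3.59 and 4.98 CPM with doxycycline, against 1.65 and 1.09 CPM without it (log2 fold change 1.62 ± 0.31, edgeR adjusted p = 0.00531). Among ligands, Kitl (stem cell factor) rose by 1.23 ± 0.25 and Pdgfb by 1.14 ± 0.20 on the log2 scale, at edgeR adjusted p = 0.00844 and 0.00264. Vegfa, the ligand of Kdr, fell, with 6.56 and 4.10 CPM with doxycycline, against 10.3 and 12.8 CPM without it (log2 fold change -1.11 ± 0.21, edgeR adjusted p = 0.0059). Kit, the receptor of Kitl, fell too, with 20.8 and 24.4 CPM with doxycycline, against 31.4 and 33.2 CPM without it (log2 fold change -0.52 ± 0.12, edgeR adjusted p = 0.0213). The call of Robo4 was lost with only the 4 day 2 libraries fitted and without untreated replicate 2, at edgeR adjusted p between 0.0978 and 0.127. The calls of Kitl and Pdgfb were lost with only the 4 day 2 libraries fitted and without untreated replicate 1, at edgeR adjusted p between 0.0755 and 0.168. The call of Vegfa was lost in limma-voom with library weights, with only the 4 day 2 libraries fitted and without untreated replicate 2, at edgeR and limma adjusted p between 0.0617 and 0.147. The call of Kit was lost in limma-voom with library weights, with only the 4 day 2 libraries fitted and without 1 or the other untreated library, at edgeR and limma adjusted p between 0.0997 and 0.223. For vascular receptors and ligands the higher count was 3 with only the 4 day 2 libraries fitted and 4 without untreated replicate 1, and the lower count was 0 with only the 4 day 2 libraries fitted or without untreated replicate 2 and 1 without untreated replicate 1.

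In bulk libraries a fall can reflect fewer cells of a type or less RNA per cell, and the same holds for a rise; these cannot be told apart here. Beside these rises stand the markers of other cell types. The 16 leukocyte genes in the table summed to 67.2 and 60.7 CPM with doxycycline, against 39.0 and 38.7 CPM without it, and Tyrobp among them had 0 counts in all 4 libraries. The 29 endoderm genes summed to 1667 and 1530.3 CPM with doxycycline, against 1554 and 1628 CPM without it. Of 24 endoderm genes tested 4 rose (16.7%) and 1 fell (4.17%), against 3.11% and 1.56% of all genes tested. Their median log2 fold change was 0.14, and 2 of the rises were called in all 20 alternatives. With only the 4 day 2 libraries fitted the higher count was 2 and the lower count 0. Both counts also moved in fits without 1 day 2 library. The 22 trophoblast genes summed to 639.7 and 670.2 CPM with doxycycline, against 817 and 811 CPM without it, with Tpbpa, Psg17 and Prl3d1 at 0. The 19 fibroblast and smooth muscle genes summed to 1141 and 1317 CPM with doxycycline, against 1349.6 and 1382 CPM without it, and none of these 19 was at 0 in all 4. The 4 markers of the fibroblast check went the other way, with a sum of 27.2 and 24.4 CPM with doxycycline, against 20.3 and 16.0 CPM without it, and Thy1 among them was called higher (log2 fold change 0.62 ± 0.16, edgeR adjusted p = 0.0408). The call of Thy1 was lost in limma-voom, in limma-voom with library weights, with only the 4 day 2 libraries fitted, without 1 or the other untreated library and without any 1 of 4 day 2.5 libraries, at edgeR and limma adjusted p between 0.0627 and 0.365. The part of these other cell types in the gene changes was not tested.

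**Figure D2:**
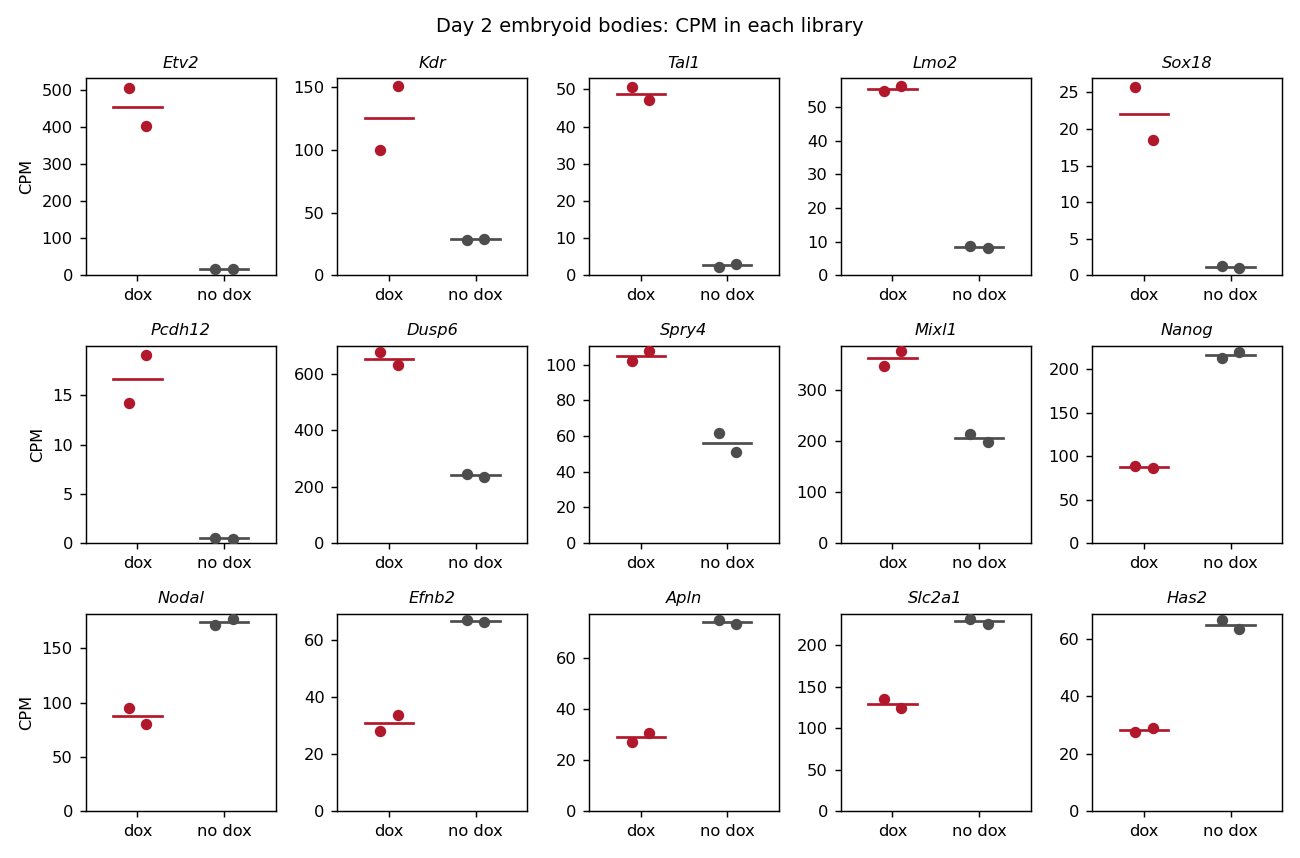
CPM (vertical axis, starting at 0) of 15 genes in the 4 day 2 libraries, doxycycline left and untreated right, with a point per library and a line at the mean of 2. As for every called gene, the groups do not overlap for any of the 15. The 9 genes from Etv2 to Mixl1 are higher with doxycycline, and the 6 from Nanog to Has2 are lower.

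The promoters of the called genes were searched for short strings. ETS factors bind DNA around a GGAA core, and the strings CCGGAAG and CAGGAAG were looked for on both strands in the 250 bases upstream of the starts that RefSeq lists (GRCm38.p6); a gene counts once however many matches it has, overlapping ones included. Promoters were at hand for 345 of the 453 higher genes, 178 of the 227 lower genes and 11386 of the 14548 tested. CAGGAAG was present in 19.1% of the higher genes and 5.06% of the lower ones, against 11.7% of all tested. CCGGAAG was present in 12.8% of the higher and 3.37% of the lower genes, against 14.4% of all. With the first listed start of each gene only, the CAGGAAG shares were 15.7% and 1.12%, against 9.44%. The GATA string AGATAAG was present in 3.77% and 2.81%, against 2.18%, the E-box CAGATG in 13.9% and 10.7%, against 11.8%, and the forkhead string TGTTTAC in 2.90% and 3.93%, against 2.64%. These are descriptions of letters in a window and were not tested. Not every chromosome was open to printing. Among higher genes on those that were, the windows below belong to the 6 with the smallest adjusted p that hold either string there outside annotated exons. Capitals mark the string, and each sequence reads 5′ to 3′ on the gene's strand.
Elk3, chr10:93311160-93311216, minus strand: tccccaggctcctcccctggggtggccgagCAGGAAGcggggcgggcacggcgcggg
Rhoj, chr12:75308154-75308220, plus strand: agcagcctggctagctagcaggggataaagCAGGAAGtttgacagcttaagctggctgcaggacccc
Hhex, chr19:37434713-37434779, plus strand: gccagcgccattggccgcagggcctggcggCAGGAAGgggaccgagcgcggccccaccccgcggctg
Pde2a, chr7:101450307-101450373, plus strand: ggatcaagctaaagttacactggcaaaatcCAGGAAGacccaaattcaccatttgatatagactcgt
Itpkb, chr1:180330373-180330439, plus strand: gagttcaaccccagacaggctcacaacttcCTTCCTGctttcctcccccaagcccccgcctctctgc
Myzap, chr9:71592478-71592544, minus strand: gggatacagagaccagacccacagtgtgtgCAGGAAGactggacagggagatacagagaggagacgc
All 6 hold CAGGAAG, and in Itpkb it stands on the opposite strand as CTTCCTG. The nearest base of the string lies 21 bases upstream of the listed start in Elk3, 123 in Rhoj, 92 in Hhex, 177 in Pde2a, 67 in Itpkb and 148 in Myzap.

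Regulators of small GTPases were among the higher genes. Relatives of Cdc42 and Rac switch the cytoskeleton, Rap proteins act on cell junctions, and all are turned on by exchange factors (GEFs) and off by activating proteins (GAPs). Among the GTPases and their Cdc42 effectors 3 of 37 rose and 2 fell. Rhoj, a Cdc42 relative of endothelial cells whose promoter window is among the 6, had 12.9 and 11.4 CPM with doxycycline, against 1.04 and 0.928 CPM without it (log2 fold change 3.61 ± 0.22, edgeR adjusted p = 5.05e-08). Cdc42ep3 had 10.5 and 9.58 CPM with doxycycline, against 3.03 and 3.82 CPM without it and Cdc42ep1 had 7.65 and 6.99 CPM with doxycycline, against 4.55 and 4.2 CPM without it. Their log2 fold changes were 1.56 ± 0.21, edgeR adjusted p = 0.000206 and 0.74 ± 0.15, edgeR adjusted p = 0.0095. Rnd3, an atypical small GTPase that opposes actin contraction, fell, with 20.2 and 23.5 CPM with doxycycline, against 36.5 and 38 CPM without it (log2 fold change -0.77 ± 0.15, edgeR adjusted p = 0.00507). The call of Cdc42ep1 was lost in limma-voom, in limma-voom with library weights, with only the 4 day 2 libraries fitted and without 1 or the other untreated library, at edgeR and limma adjusted p between 0.0837 and 0.229. The call of Rnd3 was lost with only the 4 day 2 libraries fitted and without untreated replicate 2, at edgeR adjusted p between 0.0664 and 0.0679.

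Of 38 RhoGAP genes tested 6 rose and 0 fell, and of 49 RhoGEF genes 5 rose and 1 fell. Arhgap31, a GAP for Cdc42 and Rac, had 24 and 28.2 CPM with doxycycline, against 1.95 and 2.51 CPM without it (log2 fold change 3.56 ± 0.17, edgeR adjusted p = 2.86e-09). Arhgap23 had 73.7 and 75.6 CPM with doxycycline, against 36.6 and 38.5 CPM without it (log2 fold change 0.99 ± 0.10, edgeR adjusted p = 1.14e-05). Arhgef15, an endothelial RhoGEF, had 23.2 and 24.3 CPM with doxycycline, against 6.24 and 6.77 CPM without it (log2 fold change 1.87 ± 0.13, edgeR adjusted p = 3.49e-07). The libraries of all these genes were close within each group. Plekhg5 had 55.9 and 63.3 CPM with doxycycline, against 27 and 32.1 CPM without it (log2 fold change 1.01 ± 0.12, edgeR adjusted p = 5.45e-05), and Fgd5, a Cdc42 GEF of endothelial and blood stem cells, had 54.2 and 72 CPM with doxycycline, against 33.1 and 31.9 CPM without it (log2 fold change 0.96 ± 0.12, edgeR adjusted p = 9.42e-05). The call of Fgd5 was lost with only the 4 day 2 libraries fitted, at edgeR adjusted p = 0.0543. Of 44 genes tested in the list of Ras and Rap regulators, 7 rose and 0 fell. The list holds exchange and activating proteins, and also Rasip1 and Rassf2, which are neither. Sipa1, a RapGAP, had 48.1 and 44.2 CPM with doxycycline, against 17.6 and 14.1 CPM without it (log2 fold change 1.54 ± 0.12, edgeR adjusted p = 7.16e-07). Rasip1, a junction protein that binds Rap1 and is needed for vessel lumens, had 20.5 and 17.8 CPM with doxycycline, against 12.4 and 11.9 CPM without it (log2 fold change 0.65 ± 0.14, edgeR adjusted p = 0.0103); 42.9% of its exon bases overlap another gene. Rassf2 had 24.6 and 28 CPM with doxycycline, against 15.5 and 13.4 CPM without it (log2 fold change 0.86 ± 0.12, edgeR adjusted p = 0.000329). The call of Rasip1 was lost in limma-voom, in limma-voom with library weights, with only the 4 day 2 libraries fitted and without 1 or the other untreated library, at edgeR and limma adjusted p between 0.0543 and 0.161. The call of Rassf2 was lost with only the 4 day 2 libraries fitted, at edgeR adjusted p = 0.072. For RhoGAPs the higher count was 2 with only the 4 day 2 libraries fitted or without 1 or the other untreated library, 10 without doxycycline replicate 1 and 11 with trends removed, and the lower count was 5 without doxycycline replicate 2. For RhoGEFs the higher count was 2 with only the 4 day 2 libraries fitted, 10 without doxycycline replicate 1, 3 without untreated replicate 2 and 8 with trends removed, and the lower count was 0 with only the 4 day 2 libraries fitted or without 1 or the other untreated library, 2 without doxycycline replicate 1, 10 without doxycycline replicate 2 and 3 with trends removed. For Ras and Rap regulators the higher count was 1 with only the 4 day 2 libraries fitted, 2 without untreated replicate 1 and 3 without untreated replicate 2, and the lower count was 1 without doxycycline replicate 1 and 5 without doxycycline replicate 2. For the GTPases and effectors the higher count was 5 without doxycycline replicate 2, and the lower count was 0 with only the 4 day 2 libraries fitted or without untreated replicate 2 and 1 without untreated replicate 1. RhoGEFs have long exons (median 8776 bases, against 4372 over all genes).

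Among G protein-coupled receptors and their regulators 5 of 30 rose and 3 fell. S1pr1, a receptor for sphingosine-1-phosphate on endothelial cells, had 3.49 and 5.33 CPM with doxycycline, against 0.39 and 0.273 CPM without it (log2 fold change 3.69 ± 0.33, edgeR adjusted p = 3.97e-06). Lpar6, a lysophosphatidic acid receptor, had 38.1 and 41.4 CPM with doxycycline, against 17.7 and 17.1 CPM without it (log2 fold change 1.19 ± 0.11, edgeR adjusted p = 5.68e-06). F2r, the thrombin receptor PAR1, had 113 and 122 CPM with doxycycline, against 85.3 and 82.4 CPM without it (log2 fold change 0.49 ± 0.08, edgeR adjusted p = 0.00251). Ligands of 2 such receptors fell. Apln, the peptide apelin, had 27 and 30.7 CPM with doxycycline, against 74.9 and 73.4 CPM without it (log2 fold change -1.36 ± 0.15, edgeR adjusted p = 3.85e-05), and its receptor Aplnr had 8.17 and 7.43 CPM with doxycycline, against 12 and 12.7 CPM without it (log2 fold change -0.66 ± 0.12, edgeR adjusted p = 0.00484). Cxcl12, the chemokine ligand of Cxcr4, had 67.1 and 70.5 CPM with doxycycline, against 131 and 141 CPM without it (log2 fold change -0.99 ± 0.14, edgeR adjusted p = 0.000301). The call of F2r was lost with only the 4 day 2 libraries fitted and without untreated replicate 2, at edgeR adjusted p between 0.0742 and 0.126. The call of Aplnr was lost in limma-voom with library weights, with only the 4 day 2 libraries fitted and without untreated replicate 2, at edgeR and limma adjusted p between 0.0729 and 0.212. For the receptor list the higher count was 2 with only the 4 day 2 libraries fitted and 3 without untreated replicate 2. Pde2a, a phosphodiesterase that degrades cyclic nucleotides, rose, 106 and 119.7 CPM with doxycycline, against 49.8 and 52.3 CPM without it (log2 fold change 1.14 ± 0.10, edgeR adjusted p = 2.15e-06), and 64.3% of its exon bases overlap another gene.

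More feedback genes of the ERK pathway rose than fell. ERK, the kinase downstream of FGF and VEGF receptors, induces phosphatases and Sprouty proteins that damp it. Of 32 such genes tested 11 rose (34.4%) and 3 fell (9.38%), with a median log2 fold change of 0.38. Dusp6, the ERK phosphatase, had 676 and 630.4 CPM with doxycycline, against 246 and 234 CPM without it (log2 fold change 1.44 ± 0.09, edgeR adjusted p = 4.93e-08). Spry4 had 102 and 107 CPM with doxycycline, against 61.6 and 51 CPM without it (log2 fold change 0.89 ± 0.12, edgeR adjusted p = 0.000216), and Dusp4 had 119.6 and 128 CPM with doxycycline, against 66.8 and 61.4 CPM without it (log2 fold change 0.95 ± 0.10, edgeR adjusted p = 1.34e-05). All 3 stood above both untreated libraries. Spry2 had 175 and 191 CPM with doxycycline, against 122.5 and 124.5 CPM without it (log2 fold change 0.57 ± 0.09, edgeR adjusted p = 0.000756). The lower members were Egr1, Etv5 and Dusp10, a phosphatase of the stress kinases. Egr1, an immediate early gene of ERK, had 12.5 and 12.8 CPM with doxycycline, against 31.6 and 28.6 CPM without it (log2 fold change -1.25 ± 0.16, edgeR adjusted p = 0.000161), and Dusp10 had 8.12 and 6.99 CPM with doxycycline, against 15.5 and 15 CPM without it (log2 fold change -1.01 ± 0.15, edgeR adjusted p = 0.000726). The call of Spry2 was lost with only the 4 day 2 libraries fitted, at edgeR adjusted p = 0.073. For ERK feedback genes the higher count was 4 with only the 4 day 2 libraries fitted, 7 without untreated replicate 1 and 6 without untreated replicate 2. Immediate early genes were mixed, with 6 of 27 higher and 2 lower. Fos had 20.3 and 24.3 CPM with doxycycline, against 5.80 and 4.80 CPM without it (log2 fold change 2.06 ± 0.24, edgeR adjusted p = 5.84e-05), whereas Junb and Ier2 were called on levels that differed widely between the doxycycline libraries, 47.8 and 30.2 CPM with doxycycline, against 19.3 and 20.4 CPM without it and 144 and 92.4 CPM with doxycycline, against 73 and 79.4 CPM without it. The call of Junb was lost with only the 4 day 2 libraries fitted and without 1 or the other untreated library, at edgeR adjusted p between 0.102 and 0.157. The call of Ier2 was lost in limma-voom, with only the 4 day 2 libraries fitted, without doxycycline replicate 1, without 1 or the other untreated library and without any 1 of 4 day 2.5 libraries, at edgeR and limma adjusted p between 0.0727 and 0.341. For immediate early genes the higher count was 1 with only the 4 day 2 libraries fitted or without untreated replicate 2 and 2 without untreated replicate 1, and the lower count was 1 with only the 4 day 2 libraries fitted or without 1 or the other untreated library.

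**Figure D3:**
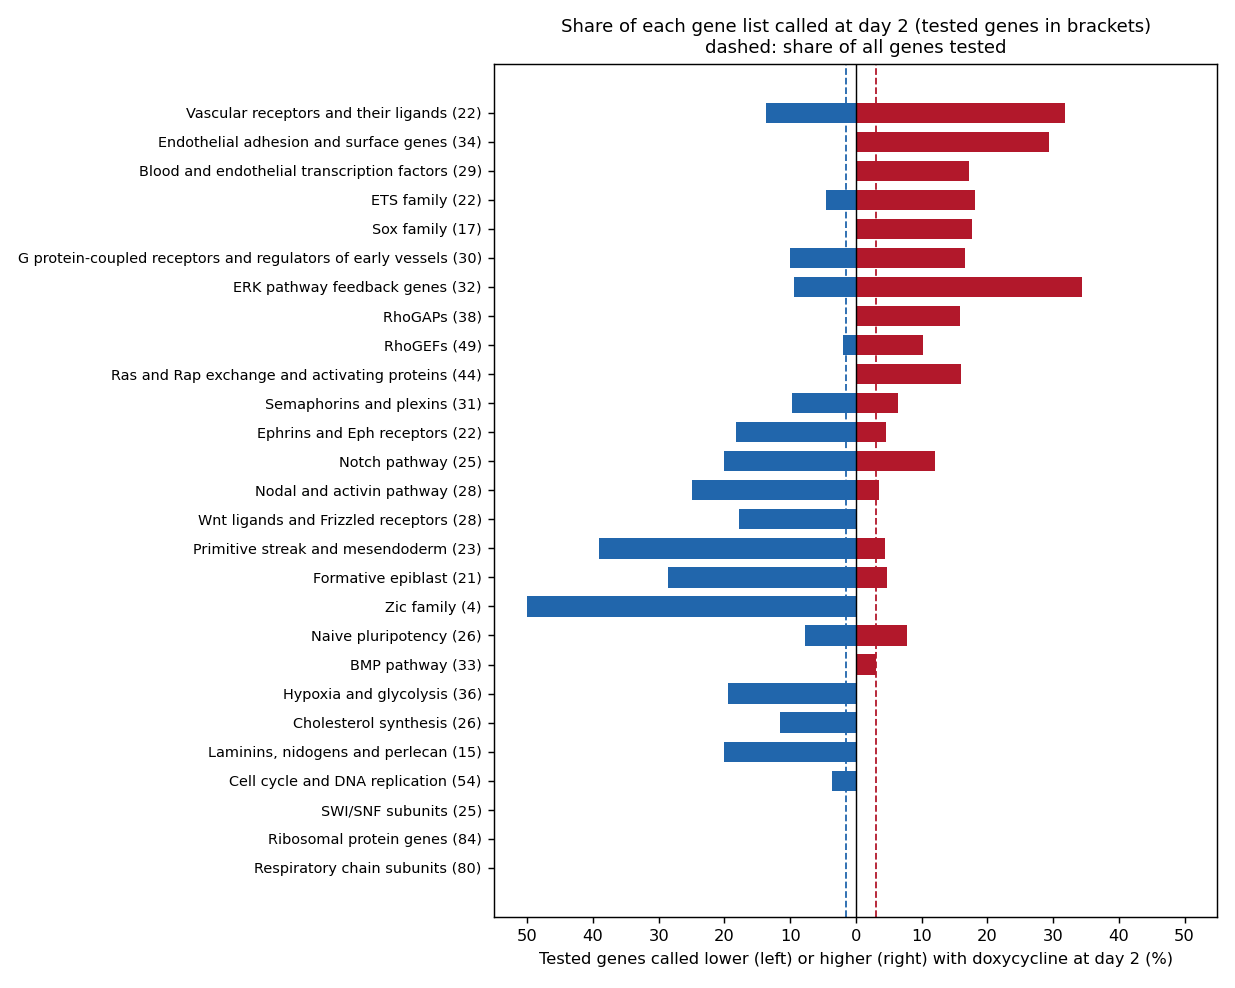
Share of the tested genes of 27 lists that were called higher (right) or lower (left) with doxycycline at day 2, in percent, with the number tested in brackets and dashed lines at the shares of all genes tested, 3.11% higher and 1.56% lower. The vascular, ERK feedback and small-GTPase lists extend to the right, the primitive streak, formative, Nodal, Wnt and hypoxia lists to the left, and ribosomal protein, respiratory chain and SWI/SNF genes have no call.

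Notch signalling genes moved in both directions. Notch receptors are activated by Delta and Jagged ligands on neighbouring cells. Of 25 tested 3 rose and 5 fell. Dll4, the Delta ligand of arterial cells, had 34 counts over the doxycycline libraries and 0 over the untreated ones, so that its level was at least 11.3-fold higher when the untreated group is set to a floor of 3 counts. Nrarp, a Notch target that dampens the pathway, had 68.5 and 70.1 CPM with doxycycline, against 19.1 and 22.5 CPM without it (log2 fold change 1.74 ± 0.11, edgeR adjusted p = 5.23e-08), with 79.4% of its exon bases overlapping another gene. Lfng, which modifies Notch receptors, had 14.2 and 12.1 CPM with doxycycline, against 5.67 and 4.15 CPM without it (log2 fold change 1.41 ± 0.22, edgeR adjusted p = 0.00111). The genes that fell were the receptors Notch2 and Notch3, the ligands Jag1 and Dll1 and the target Hes1. Jag1 had 19 and 21.5 CPM with doxycycline, against 33.9 and 31.6 CPM without it (log2 fold change -0.70 ± 0.12, edgeR adjusted p = 0.00212). Hes1 had 33.1 and 30.7 CPM with doxycycline, against 48.2 and 50.9 CPM without it (log2 fold change -0.63 ± 0.10, edgeR adjusted p = 0.00135), and Notch3 had 133 and 147 CPM with doxycycline, against 204 and 215 CPM without it (log2 fold change -0.58 ± 0.10, edgeR adjusted p = 0.00265). Their libraries lay apart between the groups by less than 2-fold. The call of Dll4 was lost with only the 4 day 2 libraries fitted and without 1 or the other untreated library, at edgeR adjusted p between 0.0559 and 0.103. The call of Jag1 was lost with only the 4 day 2 libraries fitted and without untreated replicate 1, at edgeR adjusted p between 0.0524 and 0.0956. The call of Hes1 was lost with only the 4 day 2 libraries fitted, at edgeR adjusted p = 0.071. The call of Notch3 was lost with only the 4 day 2 libraries fitted and without untreated replicate 2, at edgeR adjusted p between 0.0592 and 0.074. The call of Notch2 was lost with only the 4 day 2 libraries fitted, without doxycycline replicate 1, without 1 or the other untreated library and without any 1 of the 6 day 2.5 libraries, at edgeR adjusted p between 0.0745 and 0.349. The call of Dll1 was lost in limma-voom, in limma-voom with library weights, with only the 4 day 2 libraries fitted, without doxycycline replicate 1, without untreated replicate 1, without untreated day 2.5 replicate 1 and without untreated day 2.5 replicate 2, at edgeR and limma adjusted p between 0.0529 and 0.505. For Notch genes the higher count was 6 without doxycycline replicate 1 and 5 without doxycycline replicate 2, and the lower count was 0 with only the 4 day 2 libraries fitted, 2 without untreated replicate 1 and 3 without untreated replicate 2.

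Several genes of the Nodal pathway fell. Nodal, a TGF-beta family ligand, patterns the epiblast and streak, and Lefty1 and Fst restrain such ligands. Of 28 tested 7 fell (25%) and 1 rose, and 23 of 28 had a negative log2 fold change (median -0.25). Nodal had 95.4 and 80.2 CPM with doxycycline, against 172 and 177 CPM without it (log2 fold change -0.99 ± 0.10, edgeR adjusted p = 1.14e-05). Lefty1 had 19.5 and 13.8 CPM with doxycycline, against 37.6 and 39.2 CPM without it (log2 fold change -1.21 ± 0.20, edgeR adjusted p = 0.00201), and Fst had 169.7 and 171 CPM with doxycycline, against 281 and 279.5 CPM without it (log2 fold change -0.72 ± 0.11, edgeR adjusted p = 0.000823). The doxycycline levels of all 3 were below both untreated ones. The 1 that rose was Mixl1, a homeobox gene of the streak, with 347 and 376 CPM with doxycycline, against 213 and 197 CPM without it (log2 fold change 0.82 ± 0.09, edgeR adjusted p = 5.84e-05). For Nodal genes the lower count was 4 with only the 4 day 2 libraries fitted or without 1 or the other untreated library.

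Some Wnt ligands and Wnt targets fell as well. Of 28 Wnt ligands and Frizzled receptors tested 5 fell (17.9%) and 0 rose, and of 32 Wnt targets and inhibitors 4 fell and 1 rose. Wnt8a, a ligand of the streak, had 32.9 and 29.2 CPM with doxycycline, against 64.6 and 67.7 CPM without it (log2 fold change -1.09 ± 0.13, edgeR adjusted p = 7.63e-05), and the receptor gene Fzd10 had 37.9 and 36.5 CPM with doxycycline, against 69 and 73.1 CPM without it (log2 fold change -0.93 ± 0.09, edgeR adjusted p = 1.43e-05). Sp5, a direct target of Wnt in mouse and zebrafish, had 53 and 51.2 CPM with doxycycline, against 93.1 and 98.4 CPM without it (log2 fold change -0.88 ± 0.13, edgeR adjusted p = 0.000578). In all 3 both doxycycline libraries lay below both untreated ones. Dact1, which binds Dishevelled, had 6.66 and 8.80 CPM with doxycycline, against 23.9 and 21.4 CPM without it (log2 fold change -1.55 ± 0.17, edgeR adjusted p = 3.83e-05). Wnt11 and Wnt5b fell by 1.24 ± 0.29 and 1.05 ± 0.19 on the log2 scale (edgeR adjusted p = 0.0222 and 0.00311). The call of Wnt11 was lost in limma-voom with library weights, with only the 4 day 2 libraries fitted and without 1 or the other untreated library, at edgeR and limma adjusted p between 0.0669 and 0.161. The call of Wnt5b was lost with only the 4 day 2 libraries fitted, at edgeR adjusted p = 0.073. For Wnt ligands and receptors the lower count was 2 with only the 4 day 2 libraries fitted and 3 without 1 or the other untreated library. For Wnt targets and inhibitors the higher count was 0 with only the 4 day 2 libraries fitted and 2 without doxycycline replicate 1, and the lower count was 7 without doxycycline replicate 2.

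Primitive streak genes gave the highest share of falls among the cell-type lists. Of 23 tested 9 fell (39.1%) and 1, Mixl1, rose; the list shares Nodal, Fst, Wnt8a and Sp5 with the pathway lists, so the counts are not independent. Sp8, a zinc-finger factor that maintains Fgf8 expression in the limb, had 15.2 and 16 CPM with doxycycline, against 45.5 and 40.2 CPM without it (log2 fold change -1.46 ± 0.16, edgeR adjusted p = 3.25e-05), and Fgf8 had 55.5 and 39.1 CPM with doxycycline, against 89.8 and 101 CPM without it (log2 fold change -1.01 ± 0.16, edgeR adjusted p = 0.00133). Eomes, a T-box factor of the streak, had 357 and 429.9 CPM with doxycycline, against 563 and 549 CPM without it (log2 fold change -0.50 ± 0.10, edgeR adjusted p = 0.0109). T itself, the T-box gene brachyury, was not called, with 416 and 430.1 CPM with doxycycline, against 388 and 392 CPM without it (log2 fold change 0.12 ± 0.08, edgeR adjusted p = 0.542). The call of Fgf8 was lost with only the 4 day 2 libraries fitted, at edgeR adjusted p = 0.0509. The call of Eomes was lost with only the 4 day 2 libraries fitted and without 1 or the other untreated library, at edgeR adjusted p between 0.0891 and 0.173. For the streak list the higher count was 3 without doxycycline replicate 1 and 2 with trends removed, and the lower count was 5 with only the 4 day 2 libraries fitted.

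Among pluripotency genes the responses were selective. Of 26 naive-state genes 2 rose and 2 fell, whereas 6 of 21 genes of the formative epiblast fell and 1 rose. Nanog, a core pluripotency factor, had 88.1 and 85.9 CPM with doxycycline, against 213 and 219.7 CPM without it (log2 fold change -1.31 ± 0.12, edgeR adjusted p = 3.58e-06). Sall4, its zinc-finger partner, had 268 and 286 CPM with doxycycline, against 451 and 439 CPM without it (log2 fold change -0.68 ± 0.08, edgeR adjusted p = 8.44e-05), whereas Sox2 was not called, with 127 and 115 CPM with doxycycline, against 139.5 and 142 CPM without it (log2 fold change -0.22 ± 0.10, edgeR adjusted p = 0.31). Dppa2, a chromatin protein that primes developmental promoters, rose, with 60.6 and 66.1 CPM with doxycycline, against 35.7 and 36.2 CPM without it (log2 fold change 0.82 ± 0.12, edgeR adjusted p = 0.00046). Its partner Dppa4 had 84.8 and 71.7 CPM with doxycycline, against 58.9 and 58.1 CPM without it (log2 fold change 0.42 ± 0.10, edgeR adjusted p = 0.0288). Of the 4 Zic zinc-finger genes tested 2 fell, Zic5 with 16.7 and 18.9 CPM with doxycycline, against 37 and 43.6 CPM without it and Zic2 with 137 and 150.4 CPM with doxycycline, against 222 and 215 CPM without it; their log2 fold changes were -1.18 ± 0.15, edgeR adjusted p = 0.000126 and -0.60 ± 0.09, edgeR adjusted p = 0.000406. In all, 4 of 16 neuroectoderm genes fell, both Zic genes among them, and 0 rose. Foxi3 and Foxd3, forkhead genes of ectoderm and epiblast, fell by 0.96 ± 0.14 and 0.60 ± 0.13 on the log2 scale (edgeR adjusted p = 0.000723 and 0.0171). Pou3f1, a POU factor of epiblast and neural progenitors, rose, with 109 and 80.5 CPM with doxycycline, against 62.6 and 61.9 CPM without it (log2 fold change 0.60 ± 0.13, edgeR adjusted p = 0.0105). The call of Dppa4 was lost with only the 4 day 2 libraries fitted, without doxycycline replicate 1, without 1 or the other untreated library, without doxycycline day 2.5 replicate 1 and without doxycycline day 2.5 replicate 2, at edgeR adjusted p between 0.0608 and 0.239. The call of Zic2 was lost with only the 4 day 2 libraries fitted, at edgeR adjusted p = 0.0589. The calls of Foxd3 and Pou3f1 were lost with only the 4 day 2 libraries fitted and without 1 or the other untreated library, at edgeR adjusted p between 0.116 and 0.177. For the formative list the higher count was 0 with only the 4 day 2 libraries fitted or without 1 or the other untreated library, 3 without doxycycline replicate 1 or with trends removed and 2 without doxycycline replicate 2, and the lower count was 2 with only the 4 day 2 libraries fitted and 3 without 1 or the other untreated library. For the naive list the higher count was 1 with only the 4 day 2 libraries fitted or without 1 or the other untreated library and 5 without doxycycline replicate 2, and the lower count was 6 without doxycycline replicate 1 and 4 with trends removed. For the Zic genes the lower count was 1 with only the 4 day 2 libraries fitted and 4 without doxycycline replicate 2. For neuroectoderm genes the higher count was 1 without 1 or the other doxycycline library or with trends removed.

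Guidance genes moved in both directions. Semaphorins signal through plexins, and ephrins through Eph receptors, to repel or guide cells and axons. Of 31 semaphorins and plexins 2 rose and 3 fell. Plxnd1, a plexin of endothelial cells, had 34.4 and 39.8 CPM with doxycycline, against 14.9 and 13 CPM without it (log2 fold change 1.41 ± 0.13, edgeR adjusted p = 6.58e-06), and Sema3f had 42.8 and 40.1 CPM with doxycycline, against 13.3 and 11.7 CPM without it (log2 fold change 1.72 ± 0.13, edgeR adjusted p = 7.16e-07). Sema6a had 71.4 and 81.9 CPM with doxycycline, against 153 and 147 CPM without it (log2 fold change -0.97 ± 0.09, edgeR adjusted p = 9.28e-06). None of these 3 genes had overlapping groups, as held for every called gene. Of 22 ephrins and Eph receptors 1 rose and 4 fell. Efnb2, the ephrin of arteries, had 28.2 and 33.9 CPM with doxycycline, against 67.3 and 66.4 CPM without it (log2 fold change -1.11 ± 0.10, edgeR adjusted p = 6.58e-06). Its receptor gene Ephb4, known from veins, had 122.9 and 112 CPM with doxycycline, against 91.6 and 94 CPM without it (log2 fold change 0.34 ± 0.09, edgeR adjusted p = 0.0357). Epha2 fell, with 112 and 112 CPM with doxycycline, against 171 and 170.3 CPM without it (log2 fold change -0.60 ± 0.12, edgeR adjusted p = 0.00587). The call of Ephb4 was lost in limma-voom with library weights, with only the 4 day 2 libraries fitted, without 1 or the other untreated library and without any 1 of the 6 day 2.5 libraries, at edgeR and limma adjusted p between 0.0561 and 0.326. The call of Epha2 was lost without 1 or the other untreated library, at edgeR adjusted p between 0.0635 and 0.0684. For semaphorins and plexins the higher count was 6 without doxycycline replicate 1, and the lower count was 1 with only the 4 day 2 libraries fitted or without 1 or the other untreated library and 7 without doxycycline replicate 2. For ephrins and Eph receptors the higher count was 0 with only the 4 day 2 libraries fitted or without 1 or the other untreated library and 2 without doxycycline replicate 2, and the lower count was 2 with only the 4 day 2 libraries fitted and 1 without 1 or the other untreated library.

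Matrix genes moved in both directions. Has2, the enzyme that makes hyaluronan, fell, with 27.6 and 29 CPM with doxycycline, against 66.7 and 63.3 CPM without it (log2 fold change -1.20 ± 0.10, edgeR adjusted p = 1.8e-06). Of 15 laminin, nidogen and perlecan genes 3 fell (20%) and 0 rose. Lama5 had 330.0 and 344 CPM with doxycycline, against 498 and 492 CPM without it (log2 fold change -0.55 ± 0.08, edgeR adjusted p = 0.00081), and Hspg2, which encodes perlecan, had 139.8 and 175 CPM with doxycycline, against 209 and 241 CPM without it (log2 fold change -0.52 ± 0.11, edgeR adjusted p = 0.0104). Of 45 matrix proteases 4 rose (8.89%) and 1 fell. Mmp9, a gelatinase, had 18 and 20.1 CPM with doxycycline, against 2.04 and 3.22 CPM without it (log2 fold change 2.88 ± 0.25, edgeR adjusted p = 2.65e-06). Of 38 collagens 1 rose (2.63%) and of 25 integrins 2 rose (8%), with none lower in either family. Over all genes tested 3.11% rose and 1.56% fell, and the collagens were near that share. Itga3 had 75.8 and 84.7 CPM with doxycycline, against 40.3 and 42.7 CPM without it (log2 fold change 0.95 ± 0.14, edgeR adjusted p = 0.000405), and Itga1 had 23.7 and 46.5 CPM with doxycycline, against 16.5 and 16.9 CPM without it (log2 fold change 1.07 ± 0.22, edgeR adjusted p = 0.0145). The collagen was Col5a2, with 3.45 and 2.88 CPM with doxycycline, against 1.08 and 1.53 CPM without it (log2 fold change 1.29 ± 0.27, edgeR adjusted p = 0.0111). The call of Lama5 was lost with only the 4 day 2 libraries fitted, at edgeR adjusted p = 0.0601. The call of Hspg2 was lost with only the 4 day 2 libraries fitted and without untreated replicate 2, at edgeR adjusted p between 0.203 and 0.223. The call of Itga1 was lost with only the 4 day 2 libraries fitted and without 1 or the other untreated library, at edgeR adjusted p between 0.104 and 0.223. The call of Col5a2 was lost in limma-voom, in limma-voom with library weights, with only the 4 day 2 libraries fitted and without untreated replicate 1, at edgeR and limma adjusted p between 0.0689 and 0.216. For the laminin list the lower count was 0 with only the 4 day 2 libraries fitted, 6 without doxycycline replicate 2 and 1 without untreated replicate 2. For matrix proteases the higher count was 1 with only the 4 day 2 libraries fitted or without 1 or the other untreated library, and the lower count was 0 with only the 4 day 2 libraries fitted or without untreated replicate 1 and 2 without 1 or the other doxycycline library. For collagens the higher count was 0 with only the 4 day 2 libraries fitted or without untreated replicate 1 and 3 without doxycycline replicate 1, and the lower count was 1 without doxycycline replicate 2. For integrins the higher count was 1 with only the 4 day 2 libraries fitted or without 1 or the other untreated library and 4 without doxycycline replicate 1, and the lower count was 3 without doxycycline replicate 2 and 1 with trends removed. No cadherin of 18 tested and no clustered protocadherin of 26 tested was called in edgeR or DESeq2 (2 and 1 at an unadjusted p under 0.05). For cadherins the higher count was 2 without doxycycline replicate 1, and the lower count was 1 without doxycycline replicate 2. For clustered protocadherins the higher count was 1 without doxycycline replicate 1.

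Some genes of hypoxia and glycolysis fell. Of 36 tested 7 fell (19.4%) and 0 rose, with a median log2 fold change of -0.14; Vegfa is one of the 7. Slc2a1, the glucose transporter GLUT1, had 135 and 123.9 CPM with doxycycline, against 233 and 226 CPM without it (log2 fold change -0.82 ± 0.10, edgeR adjusted p = 0.000139). Hk2, a hexokinase, had 154 and 164 CPM with doxycycline, against 249 and 245 CPM without it (log2 fold change -0.63 ± 0.08, edgeR adjusted p = 0.000161), and Slc16a3, the lactate exporter MCT4, had 109.9 and 79.9 CPM with doxycycline, against 178 and 182 CPM without it (log2 fold change -0.92 ± 0.13, edgeR adjusted p = 0.000383). The groups of these 3 genes did not overlap, as held for every called gene. Ddit4, Bnip3 and Slc2a3 fell by 0.64, 0.70 and 0.49 on the log2 scale (edgeR adjusted p = 0.016, 0.0121 and 0.00539). The calls of Ddit4 and Slc2a3 were lost with only the 4 day 2 libraries fitted and without 1 or the other untreated library, at edgeR adjusted p between 0.0623 and 0.173. The call of Bnip3 was lost in limma-voom with library weights, with only the 4 day 2 libraries fitted and without untreated replicate 2, at edgeR and limma adjusted p between 0.0668 and 0.176. In cholesterol synthesis 3 genes of 26 fell and 22 had a negative log2 fold change (median -0.20). For hypoxia and glycolysis the higher count was 3 without doxycycline replicate 1 and 2 without doxycycline replicate 2 or with trends removed, and the lower count was 3 with only the 4 day 2 libraries fitted or without untreated replicate 2, 14 without doxycycline replicate 1 and 12 with trends removed. For cholesterol synthesis the lower count was 0 with only the 4 day 2 libraries fitted or without 1 or the other untreated library, 6 without doxycycline replicate 1, 8 without doxycycline replicate 2 and 10 with trends removed.

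Solute carriers, which move nutrients and ions across membranes, had 14 of 257 tested genes higher (5.45%) and 6 lower (2.33%). The shares of all genes tested were 3.11% and 1.56%. Slc7a8, an amino acid exchanger, had 46.3 and 60.8 CPM with doxycycline, against 7.62 and 7.69 CPM without it (log2 fold change 2.80 ± 0.13, edgeR adjusted p = 2.86e-09). Slc39a4, a zinc importer, had 51.9 and 43.3 CPM with doxycycline, against 25.1 and 23.3 CPM without it (log2 fold change 0.97 ± 0.13, edgeR adjusted p = 0.000172), and Slc46a3 had 33.4 and 33.8 CPM with doxycycline, against 14.5 and 15 CPM without it (log2 fold change 1.19 ± 0.11, edgeR adjusted p = 5.68e-06). These rises exceeded the difference between the libraries of a group. Exoc3l, a relative of an exocyst subunit, had 238 and 209 CPM with doxycycline, against 35.8 and 38.7 CPM without it (log2 fold change 2.59 ± 0.11, edgeR adjusted p = 6.57e-10), and Igfbp4, a binding protein of insulin-like growth factors, had 151 and 144 CPM with doxycycline, against 39.8 and 40.1 CPM without it (log2 fold change 1.88 ± 0.10, edgeR adjusted p = 1.37e-08). Its relative Igfbp3 fell, with 71.4 and 61.5 CPM with doxycycline, against 120.2 and 141 CPM without it (log2 fold change -0.98 ± 0.11, edgeR adjusted p = 2.96e-05). For solute carriers the higher count was 5 with only the 4 day 2 libraries fitted, 22 without doxycycline replicate 2, 8 without untreated replicate 1 and 7 without untreated replicate 2, and the lower count was 2 with only the 4 day 2 libraries fitted, 20 without doxycycline replicate 1, 16 without doxycycline replicate 2, 3 without 1 or the other untreated library and 10 with trends removed.

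Some calls belonged to genes of other tissues. Lax1, an adaptor of lymphocyte receptors, had 8.45 and 6.06 CPM with doxycycline, against 0.303 and 0.6 CPM without it (log2 fold change 4.04 ± 0.43, edgeR adjusted p = 2.56e-05), and Lcp1, an actin bundler of leukocytes, had 14.4 and 17.5 CPM with doxycycline, against 8.19 and 9.44 CPM without it (log2 fold change 0.86 ± 0.17, edgeR adjusted p = 0.00606). They were the 2 called of 7 leukocyte genes tested. For the leukocyte list the higher count was 1 with only the 4 day 2 libraries fitted or without untreated replicate 1. Dbx1, a homeobox gene of spinal cord interneurons, had 75 counts over the doxycycline libraries and 0 over the untreated ones, at least 24.9-fold higher with the untreated group set to a floor of 3 counts. Bcl2l11, which encodes the death protein Bim, had 88.9 and 90.5 CPM with doxycycline, against 48.3 and 38.9 CPM without it (log2 fold change 1.04 ± 0.12, edgeR adjusted p = 7.63e-05). Gadd45a, a stress gene also linked to DNA demethylation, had 59.5 and 57 CPM with doxycycline, against 16.8 and 18.1 CPM without it (log2 fold change 1.74 ± 0.15, edgeR adjusted p = 2.05e-06). These groups did not overlap, as held for every called gene. Irf1, an interferon-response factor, fell, with 65 and 53.3 CPM with doxycycline, against 107 and 101 CPM without it (log2 fold change -0.81 ± 0.11, edgeR adjusted p = 0.000225), and so did the cyclin gene Ccnd2, with 31.6 and 36.1 CPM with doxycycline, against 59.8 and 61.6 CPM without it (log2 fold change -0.84 ± 0.12, edgeR adjusted p = 0.000393). The call of Lcp1 was lost with only the 4 day 2 libraries fitted and without untreated replicate 1, at edgeR adjusted p between 0.122 and 0.123. Of 18 retinoic acid pathway genes tested 3, all receptors, rose and 0 fell: Rara, Rarg and Rxrg rose by 0.45, 0.53 and 0.80 on the log2 scale (edgeR adjusted p = 0.0156, 0.00251 and 0.00251). For retinoic acid genes the higher count was 0 with only the 4 day 2 libraries fitted or without untreated replicate 1, and the lower count was 2 without doxycycline replicate 1 and 1 with trends removed. The call of Rara was lost with only the 4 day 2 libraries fitted and without 1 or the other untreated library, at edgeR adjusted p between 0.153 and 0.18. The calls of Rarg and Rxrg were lost with only the 4 day 2 libraries fitted and without untreated replicate 1, at edgeR adjusted p between 0.0588 and 0.0924.

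Other large or well-known groups were also counted. Of 33 BMP pathway genes 1 rose (3.03%), Eng, near the 3.11% of all genes tested. None of 25 SWI/SNF subunits was called in edgeR (3 at an unadjusted p under 0.05, and 1 called in DESeq2), the ATPase gene Smarca2 being at 0.27 ± 0.14 on the log2 scale. Of 34 Polycomb genes 1 rose and 1 fell (2.94% each), and of 54 cell cycle and DNA replication genes 2 fell (3.70%). Over all genes tested 3.11% rose and 1.56% fell. Of 13 Hox and Cdx genes tested none was called in edgeR or DESeq2, and 1 had an unadjusted p under 0.05. For BMP genes the higher count was 2 without doxycycline replicate 1 or with trends removed and 3 without doxycycline replicate 2, and the lower count was 4 without doxycycline replicate 1, 3 without doxycycline replicate 2 and 1 with trends removed. For SWI/SNF subunits the higher count was 4 without doxycycline replicate 1, and the lower count was 1 without doxycycline replicate 1 or with trends removed and 5 without doxycycline replicate 2. For Polycomb genes the higher count was 0 with only the 4 day 2 libraries fitted or without doxycycline replicate 2 or without 1 or the other untreated library and 3 without doxycycline replicate 1, and the lower count was 0 with only the 4 day 2 libraries fitted or without 1 or the other untreated library, 5 without doxycycline replicate 1 and 3 without doxycycline replicate 2. For cell cycle genes the higher count was 2 without doxycycline replicate 1 and 3 without doxycycline replicate 2, and the lower count was 1 with only the 4 day 2 libraries fitted or without 1 or the other untreated library and 8 without 1 or the other doxycycline library. In limma-voom, with or without library weights, no gene of the Gata, SWI/SNF, Hox and Cdx, cadherin, clustered protocadherin, ribosomal protein and respiratory chain lists was called. Zfp zinc finger genes gave 13 higher and 1 lower of 343 (3.79% and 0.291%), against 3.11% and 1.56% of all genes tested. For Zfp genes the higher count was 2 with only the 4 day 2 libraries fitted, 34 without doxycycline replicate 1, 23 without doxycycline replicate 2 or with trends removed and 3 without 1 or the other untreated library, and the lower count was 0 with only the 4 day 2 libraries fitted or without 1 or the other untreated library, 4 without doxycycline replicate 1 or with trends removed and 27 without doxycycline replicate 2.

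The gap between the 2 doxycycline libraries of day 2 ran along gene length. Across 14404 genes with an annotated length, the log2 ratio of replicate 1 to replicate 2 had a rank correlation of -0.454 with exon length and 0.317 with GC content. This is a correlation across genes of 1 pair of libraries, and genes are not independent replicates. In the other 4 pairs the correlation with length lay between -0.120 and 0.0832. Among 10666 genes of at least 5 CPM it was -0.572 in the doxycycline day 2 pair. Genes were put in 10 bins of equal size by exon length. The shortest bin (64 to 1714 exon bases) had a median log2 ratio of 0.36, and the longest bin (9833 to 123179 bases) had -0.34. The untreated pair of day 2 stayed within -0.046 and 0.016 over the 10 bins.

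Both doxycycline libraries departed from the untreated mean, in opposite directions. Replicate 1 had a median log2 difference from the untreated mean of 0.25 in the shortest bin and -0.25 in the longest, and replicate 2 had -0.13 and 0.08. Replicate 1 was the farther from the untreated level in both. The share of genes called lower was 0.694% in the shortest bin and 2.64% in the longest, with 2.99% in the bin before it, whereas the share called higher was 2.64% in the shortest, 2.5% in the longest and at most 4.38%, in bin 4. The median exon length was 4312 bases among the higher genes and 6016 among the lower genes, against 4372 over all tested. With trends of length and GC removed from each library, 712 genes were higher and 431 lower; 448 of the 453 and 219 of the 227 were among them.

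Some gene families differed between the 2 doxycycline libraries, 2 families of short transcripts among them. The 84 ribosomal protein genes tested had a median log2 ratio of 0.55 between replicates 1 and 2 of the doxycycline group, and none was called in edgeR or DESeq2, with 10 at an unadjusted p under 0.05. Without doxycycline replicate 2, 21 of them were higher, and without doxycycline replicate 1, 28 were lower and 2 higher. The 80 respiratory chain genes had a median ratio of 0.46 and no call in either as well (4 at an unadjusted p under 0.05), with 17 higher without doxycycline replicate 2 and 24 lower and 1 higher without doxycycline replicate 1. The direction of these 2 families therefore depends on which doxycycline library is kept. Clustered protocadherins had a median log2 ratio of -0.48 and cadherins -0.44. Their median exon lengths were 5049.5 and 5439.5 bases, and the bins that hold these lengths had median ratios of 0.0057 and -0.045. The laminin list, with a median of 9681 bases, had a ratio of -0.11. List ratios and bin ratios were made with different small offsets added to the levels, so their sizes are not directly comparable. Whether exon length gives the size of the gap in these families was not tested. The source of the gap was not tested.

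**Figure D4:**
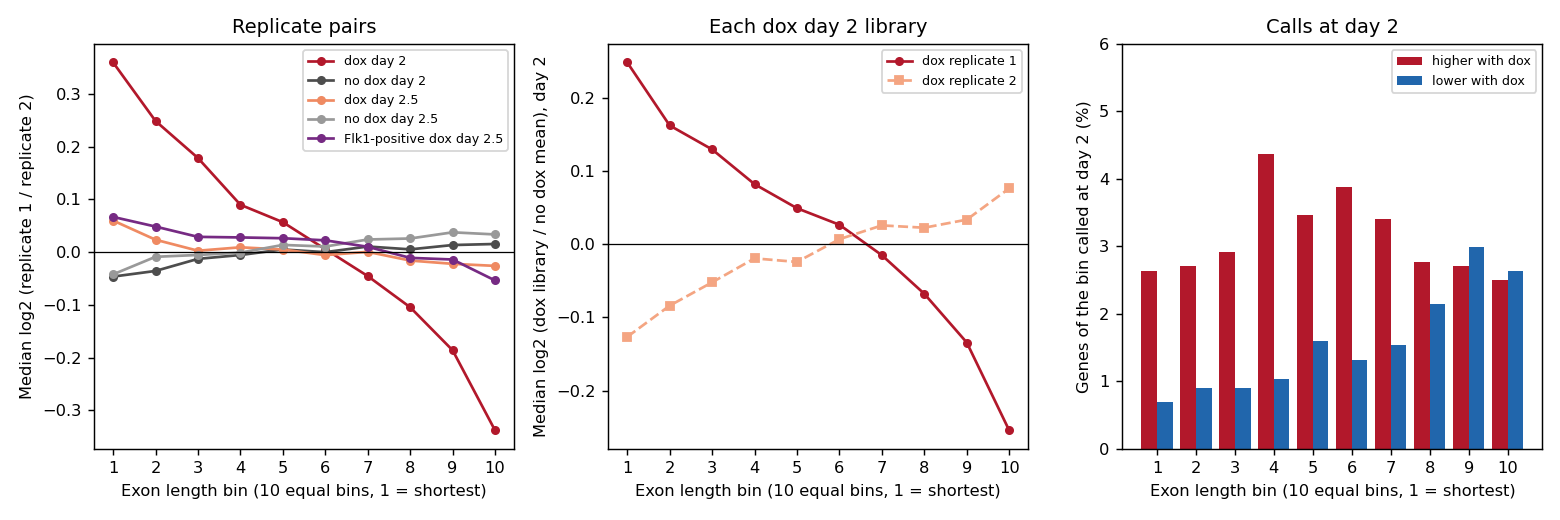
Genes in 10 bins by exon length, shortest at 1. Left, the median log2 ratio of replicate 1 to replicate 2 in each of the 5 groups, from 0.36 to -0.34 in the doxycycline day 2 pair and near 0 in the others; middle, each doxycycline library of day 2 over the untreated mean; right, the percent of genes in each bin called higher or lower at day 2.

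The day 2.5 comparison, which shares no library with that of day 2, showed how far the day 2 calls recurred. Both come from 1 fit of all 10 libraries with a shared estimate of each gene's spread, so their calls are not independent. At day 2.5, 16.1% of genes tested were higher with doxycycline and 13.8% lower. Of the 453 genes higher at day 2, 331 (73.1%) were higher at day 2.5, 10 were lower and 112 were not called. Of the 227 genes lower at day 2, 134 (59.0%) were lower at day 2.5, 9 were higher and 84 were not called. The number lower at day 2.5 (2001 in all) was 1032 without doxycycline day 2.5 replicate 2, and 1200 and 1333 without untreated day 2.5 replicate 1 and 2. The effects of the 2 days differed for 12.1% of all genes tested. Among the 453, 113 genes had a larger effect at day 2.5 and 44 a smaller or opposite one, and among the 227 the numbers were 42 and 38. This test uses the same day 2 libraries that made the calls. Kdr had a log2 fold change of 5.85 ± 0.18 at day 2.5, against 2.12 ± 0.15 at day 2, and Etv2 had 5.22 ± 0.14 against 4.75 ± 0.13.

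Some day 2 responses were gone or turned round at day 2.5. Mixl1 had a log2 fold change of -2.34 ± 0.10 at day 2.5, against 0.82 ± 0.09 at day 2. Spry4 had -1.41 ± 0.12 against 0.89 ± 0.12, Spry2 had -0.74 ± 0.09 against 0.57 ± 0.09, and Dusp6 had -0.34 ± 0.08 against 1.44 ± 0.09. Of the 32 ERK feedback genes, 11 were higher and 12 lower at day 2.5. Efnb2 was higher at day 2.5 (0.74 ± 0.10) and lower at day 2 (-1.11 ± 0.10). Has2 was at 0.19 ± 0.09 at day 2.5 and Fzd10 at 0.16 ± 0.09, neither of them called then. Nodal, Wnt8a, Apln and Nanog were lower on both days. The streak list had 20 of 23 genes lower and 1 higher at day 2.5, and the endothelial surface list 27 of 34 higher and 1 lower.

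**Figure D5:**
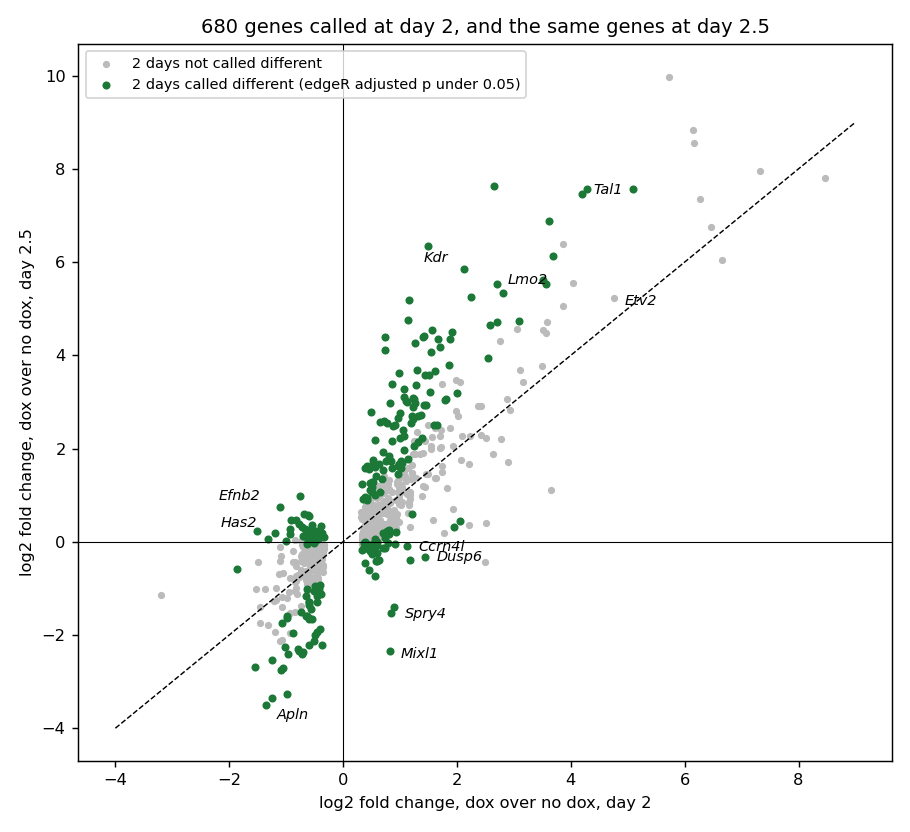
Log2 fold changes, doxycycline over untreated, of the 680 genes called at day 2, at day 2 (horizontal) and day 2.5 (vertical), with the dashed line at equal values. Green points are genes whose 2 effects differed at an edgeR adjusted p under 0.05; Kdr and Lmo2 lie above the line, and Mixl1, Spry4 and Dusp6 lie below 0 at day 2.5.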

How the data were processed

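Libraries were grouped by their labels. The authors deposited raw counts, 1 value per gene and library. TopHat, HTSeq and DESeq2 and the build mm10 are named per the submitters' processing notes, without versions or roles; no label names the annotation, the strand setting or the treatment of shared reads, so overlapping genes and near-identical copies may share counts. The table has 23429 entries, of which 92 spike-in sequences, all at 0, were left out.

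Counts were tested in R 4.3.3 with edgeR 4.0.16 (filterByExpr, minimum count 10 and total 15; TMM; glmQLFit, robust; glmQLFTest), 1 mean per group over all 10 libraries, 5 residual degrees of freedom, with Benjamini-Hochberg adjustment over 14548 genes and a threshold of 0.05. The procedure was tested on simulated data. Alternatives were another normalisation, 2 other filters, DESeq2 1.42.0, limma-voom 3.58.1 with and without library weights, a replicate block, no robust step, removal of length and GC trends, fewer groups, and each library left out. Exon lengths come from GENCODE vM21 (GRCm38). Genes were named by rule: Etv2 and Kdr, up to 8 members of each list by adjusted p, the 15 called genes with the smallest adjusted p and the 10 with the largest fold in each direction with at least 5 CPM, genes at 0 in 1 group with at least 20 counts in each library of the other, and the 8 with the smallest p of the difference between days each way. The groups of genes and the genes named were chosen with earlier results of these data known. A count of 0 allows up to 3 counts, which is 0.130 to 0.164 CPM in the day 2 libraries, and counting intervals (95%) cover counting error only.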

Additional observations from a re-analysis of the deposited data

Results flagged for a closer look

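The effect of doxycycline differed between day 2.5 and day 2 for the genes given here, which among the genes called at day 2 had the 8 smallest adjusted p of that difference in each direction, larger at day 2.5 or smaller and opposite. The difference is the day 2.5 log2 fold change minus that of day 2, tested in edgeR, and for all 16 the adjusted p of the difference was at most 2e-05. Larger rises at day 2.5 were found for Kdr (difference 3.73), Pde2a (3.61), Cdc42ep1 (3.38), Plxnd1 (2.99), Lmo2 (2.82), Slc39a4 (2.64), Igfbp4 (2.46) and F2r (2.30). Genes whose day 2 rise was smaller or reversed at day 2.5 were Mixl1 (-3.16), Spry4 (-2.30), Dusp6 (-1.78), the unnamed gene 6330407J23Rik (-1.63), Spry2 (-1.30) and Ccrn4l (-1.21), the circadian deadenylase also called nocturnin. Efnb2 (1.85) and Has2 (1.39) fell at day 2, and at day 2.5 had log2 fold changes of 0.74 and 0.19. These genes were selected for the difference, from the same day 2 libraries that called them, and the cause was not tested.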

How the results depend on the processing

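Among the day 2 counts, the number of higher genes (453) was 712 with length and GC trends removed and 117 with only the 4 day 2 libraries fitted, and it lay between 188 and 1035 with 1 library left out. The number of lower genes (227) was 437 without a filter on low counts, 343 in DESeq2, 138 in limma-voom with library weights, 431 with trends removed and 38 with only the 4 day 2 libraries, and between 58 and 1275 with 1 library left out. The fit of 4 libraries has fewer residual degrees of freedom by construction. At day 2.5 a fit of the compared groups only gave more calls, 2853 higher and 2830 lower, against 2349 and 2001. Leaving out a day 2 library leaves 1 in its group, whose spread is then not measured. The cause of the shifts was not tested. At day 2.5 the number of lower genes (2001) lay between 1032 and 2945 with 1 library left out. For the difference of the 2 days, 1000 genes were larger at day 2.5 (559 to 2115 with 1 library left out) and 763 smaller (278 to 1954), and 1268 were smaller with trends removed. The correlation of the replicate ratio with exon length (-0.454) was -0.572 for genes of at least 5 CPM. With the replicate number as a block, 486 genes were higher and 254 lower at day 2. Same-numbered samples did not deviate together (r = -0.030 for the day 2 pair and -0.034 to 0.098 for the other pairs of groups). These correlations cannot show whether same-numbered samples shared a culture or batch, and the labels do not say. Library weights were 0.390 and 0.388 for the doxycycline libraries of day 2, against 1.94 and 1.92 for the untreated ones. Over the genes picked by the naming rule and the list counts, the alternatives gave 6232 values on the same side of the threshold or within 1.5 times the count. They gave 597 calls lost and 631 list counts moved by more. No called gene picked by the naming rule changed sign, and changes of sign were not counted for other called genes. Genes that were not called were not followed across alternatives. With 2 libraries a group, depth and spread together leave small changes undetected.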

Other observations

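Further families gave scattered calls. In the Hippo pathway, whose effectors YAP and TAZ act through TEAD factors, 2 of 21 genes rose and 1 fell. Tead4 had 16.9 and 18.1 CPM with doxycycline, against 7.71 and 6.33 CPM without it (log2 fold change 1.31 ± 0.15, edgeR adjusted p = 5.58e-05), and Vgll4, a TEAD co-repressor, had 9.30 and 11.3 CPM with doxycycline, against 4.29 and 4.53 CPM without it (log2 fold change 1.23 ± 0.18, edgeR adjusted p = 0.000615). The call of Vgll4 was lost with only the 4 day 2 libraries fitted, at edgeR adjusted p = 0.0543. For the Hippo list the higher count was 1 with only the 4 day 2 libraries fitted and 5 without doxycycline replicate 1, and the lower count was 0 with only the 4 day 2 libraries fitted or without 1 or the other untreated library and 6 without doxycycline replicate 2. In the FGF pathway 3 of 23 genes rose and 2 fell, and Fgfr4, an FGF receptor, had 4.96 and 4.10 CPM with doxycycline, against 1.43 and 0.928 CPM without it (log2 fold change 1.92 ± 0.28, edgeR adjusted p = 0.000573). The call of Fgfr4 was lost with only the 4 day 2 libraries fitted, at edgeR adjusted p = 0.0604. For the FGF list the higher count was 1 with only the 4 day 2 libraries fitted, and the lower count was 0 with only the 4 day 2 libraries fitted, 5 without doxycycline replicate 1, 1 without 1 or the other untreated library and 4 with trends removed. Among imprinted genes 1 of 35 rose (2.86%) and 2 fell (5.71%), against 3.11% and 1.56% of all genes tested. Mest had 197 and 205 CPM with doxycycline, against 140.3 and 133 CPM without it (log2 fold change 0.56 ± 0.09, edgeR adjusted p = 0.00114). The call of Mest was lost with only the 4 day 2 libraries fitted, at edgeR adjusted p = 0.071. For imprinted genes the higher count was 0 with only the 4 day 2 libraries fitted and 2 without doxycycline replicate 2, and the lower count was 1 with only the 4 day 2 libraries fitted, 5 without doxycycline replicate 1, 10 without doxycycline replicate 2, 0 without 1 or the other untreated library and 4 with trends removed. The Klf and Sp family had 1 of 25 genes higher and 5 lower, Sp5 and Sp8 among them. For this family the higher count was 0 with only the 4 day 2 libraries fitted or without 1 or the other untreated library, 5 without doxycycline replicate 1 and 3 with trends removed, and the lower count was 3 with only the 4 day 2 libraries fitted or without 1 or the other untreated library and 8 without doxycycline replicate 2. Klf13, a zinc-finger factor, had 45.2 and 47.1 CPM with doxycycline, against 77.4 and 74.3 CPM without it (log2 fold change -0.72 ± 0.09, edgeR adjusted p = 0.000159).

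Of 79 potassium and calcium channel genes 3 were higher (3.80%) and 1 lower (1.27%), near the 3.11% and 1.56% of all genes tested. For these channels the higher count was 6 without doxycycline replicate 2 or with trends removed, and the lower count was 0 with only the 4 day 2 libraries fitted or without untreated replicate 1, 3 without doxycycline replicate 1 and 2 without doxycycline replicate 2. Cacna1a, a neuronal calcium channel, had 41.1 and 39.6 CPM with doxycycline, against 21.8 and 20.4 CPM without it (log2 fold change 0.93 ± 0.13, edgeR adjusted p = 0.00026), and Kcna5 had 3.82 and 4.98 CPM with doxycycline, against 0.91 and 0.709 CPM without it (log2 fold change 2.42 ± 0.40, edgeR adjusted p = 0.00167). Of 28 apoptosis regulators 2 rose (7.14%) and 1 fell (3.57%), and of 24 interferon and innate immune genes 1 rose and 1 fell (4.17% each). Of 27 serine and amino acid stress genes 2 fell (7.41%), of 22 p53 targets 1 fell (4.55%), and of 363 unnamed predicted genes 2 rose (0.551%). For apoptosis regulators the higher count was 1 with only the 4 day 2 libraries fitted or without 1 or the other untreated library and 4 without doxycycline replicate 2, and the lower count was 0 with only the 4 day 2 libraries fitted or without 1 or the other untreated library and 2 without doxycycline replicate 1. For interferon genes the higher count was 0 with only the 4 day 2 libraries fitted or without untreated replicate 2, 3 without doxycycline replicate 1 and 2 without doxycycline replicate 2 or with trends removed, and the lower count was 2 without doxycycline replicate 1. For serine and stress genes the lower count was 0 with only the 4 day 2 libraries fitted or without 1 or the other untreated library, 6 without doxycycline replicate 1 and 5 with trends removed. For p53 targets the higher count was 3 without 1 or the other doxycycline library and 2 with trends removed, and the lower count was 0 with only the 4 day 2 libraries fitted or without 1 or the other untreated library and 2 without doxycycline replicate 1. For unnamed genes the higher count was 0 with only the 4 day 2 libraries fitted or without untreated replicate 1, 12 without doxycycline replicate 1, 11 without doxycycline replicate 2, 1 without untreated replicate 2 and 6 with trends removed, and the lower count was 8 without doxycycline replicate 1, 15 without doxycycline replicate 2 and 5 with trends removed. No small nucleolar RNA or microRNA row of 88 tested and no replication-dependent histone gene of 23 was called in edgeR, DESeq2 or limma-voom, with 9 and 2 at an unadjusted p under 0.05. For the 88 rows the higher count was 4 without doxycycline replicate 2 and 2 with trends removed, and the lower count was 2 without doxycycline replicate 1. For the histone genes the lower count was 1 without doxycycline replicate 1.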
